A study of Mus musculus with 3 samples.

Results

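The peaks described here lie at the start of the sequenced part of mouse chromosome 11, in and beside Sfi1 and Drg1. They were selected on where the peaks lie: every peak of either deposited list that touched chromosome 11 from 3100000 to 3250000 (mm10) was taken, because this window is dense in both lists. That gave 23 of all 1389 peaks: TH2A contributed 16 of its 210 and TH2B 7 of its 1179. The number of peaks and their closeness are therefore a description and were given no test. Both lists came from native ChIP of chromatin from mature caudal sperm of BALB/c-129-E mice aged 8 to 12 weeks, without any treatment or genetic change named in the labels. Rabbit antibodies against mouse TH2A or TH2B were used, 2 ChIP reactions per variant were pooled before sequencing, and an Input of mononucleosomal DNA without antibody served as the control of peak calling. Each variant was thus measured in 1 library, and no test between TH2A and TH2B was possible. Intervals given for shares are 95% Wilson intervals and cover counting error only. They treat peaks as independent, which neighbouring peaks of 1 locus need not be. A list of positions holds no expression, so the labelled cell type could not be checked against marker genes.

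TH2A and TH2B are testis-specific variants of the core histones H2A and H2B that are built into chromatin during spermatogenesis. Most histones leave the DNA when protamines compact the sperm nucleus, and the nucleosomes that stay behind include both variants. Sfi1 encodes a centrin-binding protein of centrioles and spindle poles, and Drg1 encodes a GTP-binding protein that acts with ribosomes.

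The positions that TH2A and TH2B shared are shown first, since they carry the overlap described in this locus. All 3 lay in introns of Sfi1, and each stretch below is the part common to a TH2A and a TH2B peak, on the plus strand of mm10, 5′ to 3′, which is antisense to Sfi1. Capitals mark bases that differ in a near-identical copy of this locus on an unplaced contig. The stretches in introns 28 and 14 hold no capitals, as each of their bases has the same base in the copy, which has 1 extra base within the stretch of intron 14.
Intron 28, chr11:3133508-3133705: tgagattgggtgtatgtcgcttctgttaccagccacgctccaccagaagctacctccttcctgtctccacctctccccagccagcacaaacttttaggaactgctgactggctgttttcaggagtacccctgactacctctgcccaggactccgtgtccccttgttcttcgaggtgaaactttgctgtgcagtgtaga
Intron 21, chr11:3137310-3137546: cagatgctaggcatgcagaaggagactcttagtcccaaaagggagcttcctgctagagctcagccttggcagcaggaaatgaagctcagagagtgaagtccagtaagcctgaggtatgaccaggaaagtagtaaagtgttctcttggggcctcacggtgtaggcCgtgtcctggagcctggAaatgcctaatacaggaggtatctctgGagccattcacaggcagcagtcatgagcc
Intron 14, chr11:3148598-3148797: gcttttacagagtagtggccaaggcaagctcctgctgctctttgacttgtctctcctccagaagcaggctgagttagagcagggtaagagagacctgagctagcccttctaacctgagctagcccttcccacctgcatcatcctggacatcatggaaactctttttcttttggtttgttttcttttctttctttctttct

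With GENCODE, the single peak that reached an exon of a coding Sfi1 transcript belonged to TH2B; with RefSeq, a TH2A peak upstream reached an exon too. It is printed on the Sfi1 strand (minus strand of mm10), 5′ to 3′, with the bases of exon 20 in capitals. The peak took in 49 of the 103 bases of that exon, and the rest of it lay in intron 19 upstream.
Exon 20, chr11:3142362-3142660: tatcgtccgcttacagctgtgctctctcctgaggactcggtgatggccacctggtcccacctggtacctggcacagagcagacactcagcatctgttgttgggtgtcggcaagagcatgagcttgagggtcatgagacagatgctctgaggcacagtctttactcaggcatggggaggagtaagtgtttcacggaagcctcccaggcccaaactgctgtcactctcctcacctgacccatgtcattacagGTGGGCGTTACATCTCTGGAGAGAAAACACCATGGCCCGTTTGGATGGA

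The widest peak of the locus belonged to TH2A and began where the copied part of the locus ended. Its first 300 bases are given on the plus strand, 5′ to 3′, with the 82 bases that have a counterpart at the very end of the contig in capitals. The remaining 876 bases of the 958-bp peak lay past that edge.
Start of the widest peak, chr11:3184246-3184545: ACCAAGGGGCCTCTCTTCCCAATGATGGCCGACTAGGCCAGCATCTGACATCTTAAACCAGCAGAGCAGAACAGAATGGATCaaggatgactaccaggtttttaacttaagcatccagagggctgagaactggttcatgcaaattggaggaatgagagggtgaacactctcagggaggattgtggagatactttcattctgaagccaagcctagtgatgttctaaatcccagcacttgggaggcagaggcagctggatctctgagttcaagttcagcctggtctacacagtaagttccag

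Sfi1 held most of the peaks. In the GENCODE annotation it spans chr11:3131850-3193463 on the minus strand, so its 5′ end has the higher coordinate. TH2A had 10 peaks and TH2B 4 peaks in this gene body. All 10 TH2A peaks fell between the exons of the coding Sfi1 transcript used for numbering, which has 32 exons. Counted from its 5′ end, they lay in introns 1, 4, 9, 13, 14, 20, 21 and 28, with 3 peaks in intron 9 and 1 in each of the others. Its exons make up 6.33% of its 61583 bp. The 4 TH2B peaks lay in introns 14, 21 and 28 and across the border of intron 19 and exon 20, and so only in the 3′ part of the gene. The positions in introns 14, 21 and 28 were those that TH2A occupied as well.

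**Figure D1:**
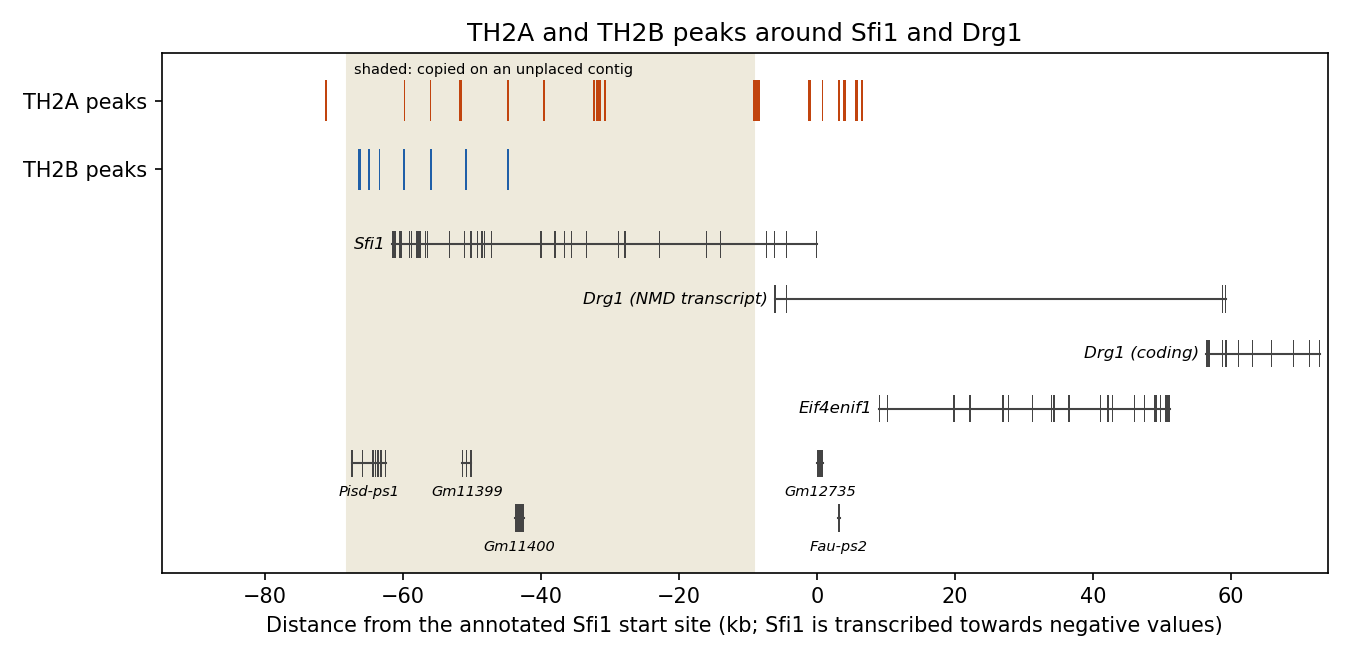
Peaks of TH2A and TH2B (coloured bars) and exons of annotated transcripts (dark bars) against the distance in kb from the annotated start site of Sfi1; the shaded part is the stretch copied on an unplaced contig. The 7 TH2B peaks all lie in the shaded part, while TH2A peaks run on past it and past the start of Sfi1; peaks narrower than 0.25 kb are drawn at that width.

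Starting from the 3′ side of Sfi1, the first TH2A peak was at chr11:3133508-3133776 (269 bp, intron 28). It was followed by chr11:3137309-3137546 (238 bp, intron 21) and chr11:3141481-3141966 (486 bp, intron 20). Further towards the 5′ end lay chr11:3148594-3148810 (217 bp, intron 14) and chr11:3153706-3153967 (262 bp, intron 13). These 5 positions were each alone in their intron. The group in intron 9 consisted of chr11:3161043-3161278 (236 bp), chr11:3161456-3162137 (682 bp) and chr11:3162593-3162795 (203 bp). The gaps between them were 177 bp and 455 bp. After 21450 bp without a peak, the 958-bp peak at chr11:3184246-3185203 lay in intron 4. The last TH2A peak in the GENCODE gene body, chr11:3192124-3192590 (467 bp), lay in intron 1, with its centre 1106 bp downstream of the start site.

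TH2A continued upstream of the Sfi1 start in 5 more peaks. They were chr11:3194155-3194366 (212 bp), chr11:3196499-3196760 (262 bp), chr11:3197284-3197627 (344 bp), chr11:3198989-3199371 (383 bp) and chr11:3199855-3200061 (207 bp). In GENCODE these positions lie outside Sfi1. RefSeq carries the gene up to 3203347, and with its gene body the count of TH2A peaks in Sfi1 was 15 in place of 10, whereas TH2B stayed at 4. In a RefSeq Sfi1 transcript that starts at 3200652, the first 4 of these peaks lay in intron 1, and the peak nearest its start crossed the border of exon 1 and intron 1. The first of them also reached the first exon of Gm12735, an antisense transcript, by 109 bp. The second lay wholly in Fau-ps2, a processed pseudogene of the ribosomal protein fusion gene Fau.

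Drg1 was overlapped by 6 TH2A peaks and no TH2B peak, but only through 1 of its 7 GENCODE transcripts. That transcript is marked for nonsense-mediated decay and reaches far past the 3′ end of the coding gene, from 3252685 down to 3187360. All 6 peaks lay in its intron 2, and they are the peak in intron 1 of Sfi1 and the 5 upstream of it. The coding Drg1 transcript spans chr11:3249907-3266393, and 0 peaks of either list touched it. The nearest peak ended 49845 bp short of it. RefSeq gives Drg1 as chr11:3249907-3266464, which likewise held 0 peaks. Eif4enif1, which encodes a transporter of the cap-binding factor eIF4E, lies between Sfi1 and coding Drg1 on the other strand (chr11:3202392-3244588) and held 0 peaks.

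Towards the chromosome start, TH2B had 3 peaks in Pisd-ps1 (chr11:3125904-3131004, plus strand), a transcribed pseudogene of the phosphatidylserine decarboxylase gene Pisd. They were chr11:3126946-3127322 (377 bp), chr11:3128361-3128625 (265 bp) and chr11:3129922-3130154 (233 bp). The outer peaks reached a Pisd-ps1 exon, by 89 bp and 227 bp, and the middle one did not. TH2A had no peak in Pisd-ps1. Its only peak in no annotated gene was chr11:3122132-3122346 (215 bp), 22131 bp after the first sequenced base of the chromosome at 3100001.

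The 4 TH2B peaks in Sfi1 were chr11:3133504-3133705 (202 bp, intron 28), chr11:3137310-3137572 (263 bp, intron 21), chr11:3142362-3142660 (299 bp, exon 20) and chr11:3148598-3148797 (200 bp, intron 14). The peak at exon 20 also overlapped Gm11399, an antisense transcript on the opposite strand. The last TH2B peak ended at 3148797, and 11 TH2A peaks lay beyond it, over a further 51264 bp.

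The positions of the 3 shared pairs differed little. In intron 28 the common part was 198 bp, 73.6% of the TH2A and 98.0% of the TH2B peak. In intron 21 it was 237 bp, or 99.6% and 90.1%. In intron 14 it was 200 bp, 92.2% of the TH2A peak and the whole TH2B peak. The starts of the paired peaks were 4, 1 and 4 bp apart, and the ends 71, 26 and 13 bp apart. The shared peaks were 3 of 16 TH2A peaks (18.8%, interval 6.59 to 43.0%), against 31.9% of the whole TH2A list. They were 3 of 7 TH2B peaks (42.9%, interval 15.8 to 75.0%), against 5.68% of the whole TH2B list. Both whole-list shares include these pairs. The window was chosen as dense in both lists, which favours overlap, so these shares are a description and were not tested. The 67 TH2B peaks on the rest of chromosome 11 could not be shared, as TH2A had no peak there. One further pair came close without touching: the TH2A peak in intron 20 ended 395 bp before the TH2B peak at exon 20. The other TH2A peaks were 4599 bp to 51057 bp from the nearest TH2B peak.

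Exons of any annotated transcript were reached by 3 of the 16 TH2A peaks (18.8%, interval 6.59 to 43.0%) and by 4 of the 7 TH2B peaks (57.1%, interval 25.0 to 84.2%). For TH2A these were Gm12735, Fau-ps2 and a retained-intron transcript of Sfi1 that covers intron 28. For TH2B they were the Pisd-ps1 exons at 2 peaks, the same retained-intron transcript and exon 20. The TH2A share on the other assembled chromosomes was 18.0% (31 of 172), and the TH2B share on the rest of chromosome 11 was 64.2% (43 of 67, interval 52.2 to 74.6%). The interval of each share in the locus included the share elsewhere. Introns without any exon held 12 of 16 TH2A peaks in the locus (75.0%, interval 50.5 to 89.8%), against 34.3% (27.6 to 41.7%) on the other assembled chromosomes. Of these 12, the peaks starting at 3197284, 3198989 and 3199855 were intronic in GENCODE only through the Drg1 transcript marked for nonsense-mediated decay. The window was also laid over genes, so this difference is a description and was not tested.

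Of the chromosome 11 peaks, all 16 of TH2A lay in the window, which holds 0.126% of the sequenced bases of the chromosome. For TH2B it was 7 of 74 (9.46%, interval 4.66 to 18.3%). The TH2B density was 46.7 peaks per Mb inside and 0.565 per Mb outside, and no other 150 kb of the chromosome held more than 3 TH2B peaks. The next TH2B peak, at chr11:3998073-3998300, lay 849275 bp further on, 4271 bp from the nearest start site, that of Gm11954. The centres of neighbouring TH2A peaks were a median of 3786 bp apart (636 to 22031 bp), and those of TH2B 3702 bp (1359 to 6187 bp). On the rest of chromosome 11 the median distance between TH2B centres was 673161 bp.

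Peaks of the locus had widths like those of other peaks, apart from a few wide TH2A peaks. The median was 262 bp for TH2A (203 to 958 bp) and 263 bp for TH2B (200 to 377 bp). It was 253 bp for TH2A on the other assembled chromosomes and 233 bp for TH2B on the rest of chromosome 11. In the locus 4 of 16 TH2A peaks were wider than 400 bp (25.0%, interval 10.2 to 49.5%), against 18 of 172 elsewhere (10.5%, interval 6.72 to 15.9%). The interval of the locus included the share elsewhere. The 4 wide peaks of the locus were those in intron 20, intron 9, intron 4 and intron 1. The 958-bp peak in intron 4 was wider than any TH2A peak elsewhere on the assembled chromosomes, where the widest was 801 bp. No TH2B peak of the locus passed 400 bp. On the unplaced contig that carries a copy of the locus, 6 of 11 TH2A peaks were wider than 400 bp, with a median of 402 bp.

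**Figure D2:**
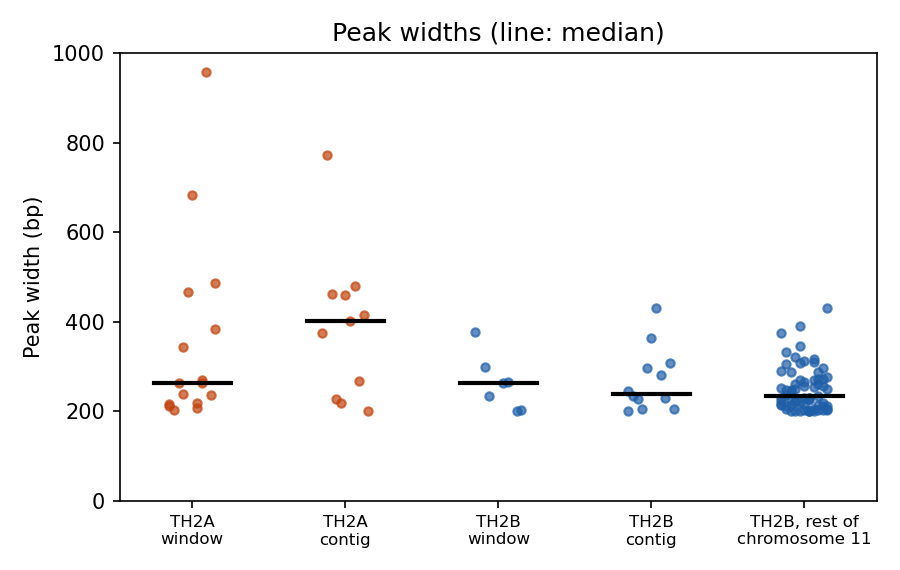
Peak width in bp, 1 point per peak, for TH2A and TH2B in the window, on the unplaced contig that carries its copy, and for TH2B on the rest of chromosome 11; the line is the median. Window medians were 262 bp (TH2A) and 263 bp (TH2B), and the widest point is the 958-bp TH2A peak in intron 4 of Sfi1.

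The TH2B peaks at Sfi1 and Pisd-ps1 had a lower median GC content and fewer CpG than those on the rest of chromosome 11. Within 1 kb of a start site lay 2 of the 7 peaks of the locus and 36 of the 67 others. Their GC content was 47.0 to 55.2% with a median of 54.0%, while the other 67 peaks had 51.5 to 67.0% with a median of 61.0%, and 2 of those 67 did not exceed the highest value of the locus. The ratio of observed to expected CpG, which is near 1 where CpG is not depleted, was 0 to 0.308 with a median of 0.145 in the locus. Elsewhere on the chromosome it was 0.0431 to 1.10 with a median of 0.578. Only 10 of those 67 peaks had a ratio at or under the highest of the locus, so the sets overlapped in part. The stretch of 59040 bp that holds the 7 peaks, described below as copied, had 47.3% GC and a ratio of 0.167 as a whole. The sequence around the other 67 peaks was not measured. The 12 TH2B peaks on the contig that carries its copy had medians of 55.1% and 0.118. For TH2A in the locus the median GC content was 47.1% and the median ratio 0.136, beside 48.5% and 0.127 for TH2A on the other assembled chromosomes. The highest TH2B ratio of the locus, 0.308, was that of the peak at exon 20, and the peak shared in intron 14 held no CpG in either list.

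**Figure D3:**
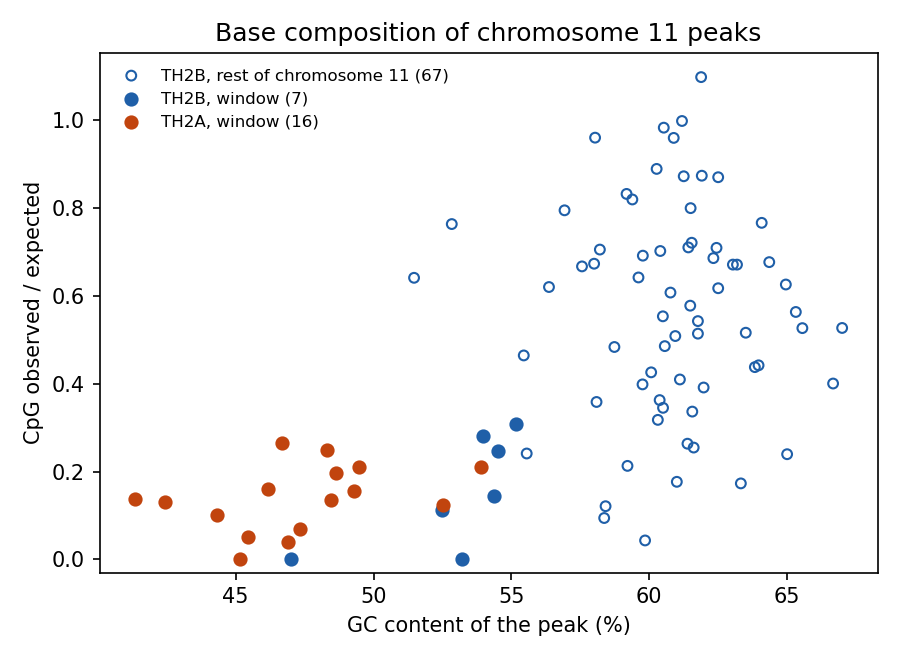
GC content in percent (horizontal) against the ratio of observed to expected CpG (vertical), 1 point per chromosome 11 peak. Filled points are the 16 TH2A and 7 TH2B peaks of the window, all at or below a ratio of 0.308; open points are the 67 TH2B peaks on the rest of the chromosome, with a median of 0.578.

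A large part of the locus is present a second time in the mouse assembly. An unplaced contig of 114452 bp carries, in inverted order, a copy of chr11:3125288-3184327, a stretch of 59040 bp that includes Pisd-ps1 and 85.2% of Sfi1. Of this stretch 97.3% could be aligned, and 98.0% of the aligned bases were identical. The contig begins with the base that matches 3184327, so sequence past it has no counterpart there. All 7 TH2B peaks and 8 TH2A peaks lay wholly inside the copied stretch. The remaining TH2A peaks were 1 before it, 1 across its far edge and 6 past it. Each of the 3 shared positions was inside.

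Each of the 15 peaks inside had a near-identical match on the contig, with 98.1 to 100% identity (a match counted at 95% identity or more over at least 80% of the peak). The 3 TH2B peaks in Pisd-ps1 also matched chromosome 17, and 1 of these chromosome 5. At these matching places 0 peaks of either list overlapped the match. Listed peaks were close to the chromosome 17 matches, at 78, 1490 and 138 bp in the order of the Pisd-ps1 peaks. The TH2A peak outside genes matched 3 nearby places on chromosome 11. In all, 9 of 16 TH2A peaks had such a copy (56.3%, interval 33.2 to 76.9%), where 68.1% of TH2A peaks on assembled chromosomes had one. For TH2B it was 7 of 7 (interval 64.6 to 100%). The figure was 24.8% for all assembled chromosomes and 5 of 67 (7.46%, interval 3.23 to 16.3%) for the rest of chromosome 11. All 7 TH2B peaks lay in 1 copied stretch, so they are not 7 separate outcomes, which the interval does not take into account. The 7 TH2A peaks from 3184246 onwards had none.

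How far a read could be placed on chromosome 11 alone was described by the share of 150-bp words, the length of 1 read, that occur at 1 place in the assembly. In the copied stretch 83.4% of words did so, and from its edge to the last TH2A peak 100%. The assembly is of another strain than the mice used, and the contig stops at that edge. These shares therefore describe the assembly, and whether the mice carried other copies was not tested. Of the 15 peaks inside, 4 consisted of such words throughout and 5 held none. Without any unique word were the TH2A peaks in introns 28 and 20, the first TH2A peak of the intron 9 group, the TH2B peak in intron 28 and the middle TH2B peak in Pisd-ps1. At the shared position in intron 21 the share was 82.0% for the TH2A and 86.8% for the TH2B peak, and at that in intron 14 it was 33.8% and 19.6%. The peak at exon 20 had 19.3%. On the rest of chromosome 11, 66 of 67 TH2B peaks had unique words throughout. The sequenced DNA was mononucleosomal, so a read pair need not reach past the length of a word. The part of read pairs in placing these peaks was not tested.

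**Figure D4:**
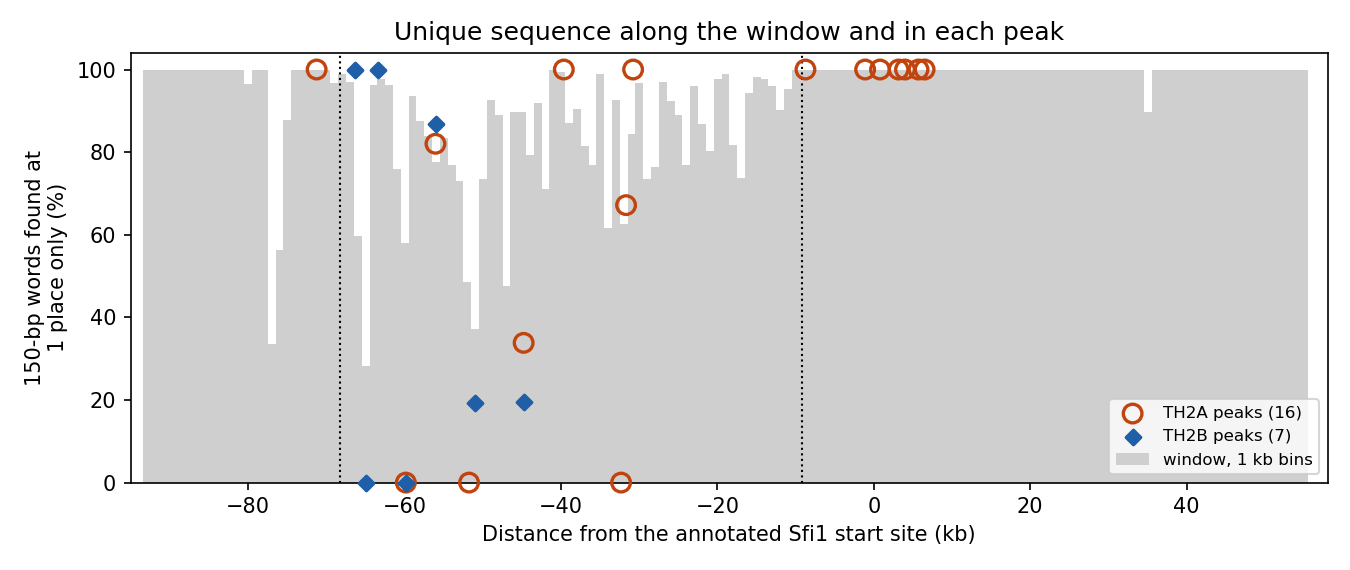
Share in percent of 150-bp words found at 1 place in the assembly, against the distance in kb from the Sfi1 start site, in 1 kb bins (grey bars) and in each TH2A (open circles) and TH2B peak (diamonds); dotted lines bound the copied stretch. Peaks to the right of the copied stretch are all at 100%, and 5 inside it are at 0.

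The contig had peaks of its own, 11 of TH2A and 12 of TH2B. Carried through the alignment, 10 TH2A and 12 TH2B peaks of the contig found a matching position on chromosome 11, and 0 of these 22 overlapped a peak of either list there. The TH2A and TH2B peaks inside the copied stretch held 2593 bp and 1839 bp of its 57458 aligned bp, in part the same bases. Most of the stretch was thus free of chromosome 11 peaks, and the lack of overlap was not tested. No TH2A and TH2B peak overlapped on the contig, where 31.9% of all TH2A and 5.68% of all TH2B peaks overlapped the other list. The nearest approach of contig peaks to chromosome 11 peaks was in intron 9 of Sfi1. There a contig TH2A peak matched chr11:3162165-3162582 and fell into the space between the chromosome 11 TH2A peaks of 682 bp and 203 bp, 27 bp from the one and 10 bp from the other. A contig TH2B peak followed at a distance of 68 bp (chr11:3162864-3163107). At the edge of the copy, a contig TH2A peak matched chr11:3183748-3184127, 118 bp before the widest TH2A peak.

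The chromosome 11 peaks sat on parts of the copied stretch that differ little from the contig. The 8 TH2A peaks held 12 differing bases in 2593 aligned bp (0.463 per 100 bp) and the 7 TH2B peaks 9 in 1839 bp (0.489 per 100 bp). Over the whole copied stretch the value was 2.02 per 100 bp. The contig peaks were close to it, with 2.20 per 100 bp for TH2A and 2.12 per 100 bp for TH2B. These are chromosome 11 bases that were changed or missing in the copy, and none was found in 6 of the 15 chromosome 11 peaks and in 0 of the 22 contig peaks. Unique words were more frequent in the contig peaks. None of the 22 lacked them, 5 of 10 TH2A and 10 of 12 TH2B peaks of the contig had them throughout, and the median shares were 99.1% and 100%. For the 5 chromosome 11 peaks without any unique word, the lists do not show which copy the reads came from.

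On 1 axis, the peaks of both copies showed where each variant lay along the gene. On chromosome 11 itself, TH2B reached exon 20 of the 32-exon Sfi1 transcript. Contig TH2B peaks matched the chromosome 11 positions of its exons 13, 15, 17, 19, 23 and 30. By the annotation of the contig itself, 2 of its 12 TH2B peaks reached an exon and 10 lay outside genes. On chromosome 11 alone, 1 of 7 TH2B peaks and 0 of the 9 TH2A peaks that touched the copied stretch reached an exon of this transcript. At the matching positions of contig peaks it was 6 of 12 TH2B and 0 of 10 TH2A peaks, so most of the exons came from contig peaks. With every annotated transcript counted, exons were reached on chromosome 11 by 4 of 7 TH2B and 1 of 9 TH2A peaks, and at the matching positions of contig peaks by 9 of 12 and 0 of 10. These counts are a description of 1 library per variant. Exons of the 32-exon transcript take up 5.82% of the copied stretch, and exons of all transcripts 16.7%. On this axis, TH2B peaks of both copies ended at 3163107, in intron 9 and 30.4 kb downstream of the Sfi1 start. TH2A peaks of the contig matched positions in introns 4, 6, 7, 9, 10 and 21.

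**Figure D5:**
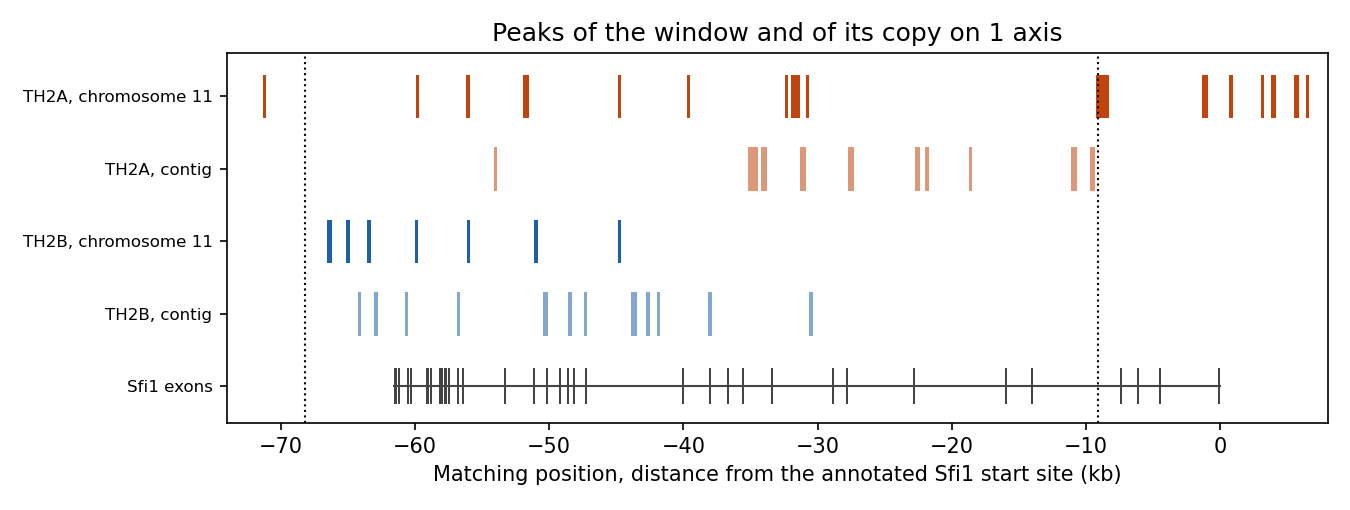
Peaks of chromosome 11 (full colour) and peaks of the unplaced contig carried to their matching positions (pale), for TH2A and TH2B, with the exons of Sfi1, against the distance in kb from the Sfi1 start site; dotted lines bound the copied stretch. Peaks of the copies do not overlap. TH2B peaks run from beyond the 3′ end of the gene up to intron 9, at exons and in introns. TH2A peaks extend to the 5′ side.

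Other genes that work with Sfi1 or Drg1 were examined in lists that include Sfi1 and Drg1 themselves, which were chosen for their peaks. Of all 55536 annotated genes, 0.292% had a TH2A peak and 2.59% a TH2B peak inside or within 5 kb. Of 21 genes for centrin binding and centriole assembly, TH2A had a peak in or within 5 kb of Sfi1 only. TH2B had peaks at Sfi1, at Poc1a, a component of the centriole wall, and at Cenpj, a regulator of centriole length, with the last 2 inside the gene. The centrin genes Cetn1, Cetn2, Cetn3 and Cetn4 had 0 peaks of either list within that distance. Of 5 genes on Drg1 and its partners, TH2A was near Drg1 alone, through the long transcript above, and TH2B near none. Drg2, the paralogue of Drg1 on chromosome 11, had its nearest TH2B peak 9114 bp away.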

How the data were processed

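Mononucleosomal DNA from native ChIP of caudal sperm was sequenced as 150 bp read pairs, about 34000000 unique pairs for TH2A and 30000000 for TH2B and Input per the labels. Trimming with Trimmomatic 0.36, alignment by BWA to the mm10 build and filtering with SAMtools were done by the authors. They then called peaks with MACS2 2.1.3 against Input on the pooled reactions of each variant and filtered them by a p-value cutoff. The lists the authors deposited hold positions and widths in bp, with both ends included and no other measure, so peak strength and the depth behind each peak are unknown. How reads with several possible positions were treated is not given in the sources used here.

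Peaks touching the window by at least 1 bp were taken. The members and gene lists were chosen with earlier results of these data known. Named genes were Sfi1, Drg1, every gene overlapped by a peak of the window, the gene nearest to the next peak of chromosome 11, and the genes of the 2 lists. Genes came from GENCODE M21 and RefSeq, and sequences from GRCm38 (RefSeq). Copies were sought with BLAST 2.17.0 in the chromosomes and in the unplaced and unlocalized contigs. The contig was identified from exon positions: 3 of its 9 GENCODE exons had the same start and end in RefSeq, and 0 did for the other 22 names. The copied stretch was built from aligned segments of at least 1000 bp on 1 diagonal. Intervals came from scipy 1.17.1 and plots from matplotlib 3.10.9, with Python 3.11. The functions were tested on simulated data.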

Additional observations from a re-analysis of the deposited data

How the results depend on the processing

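Of 32 alternatives, 25 moved no count by more than 1.5 times, no share out of its interval and no median. Counting only exons of protein-coding transcripts gave 0 TH2A peaks and 1 TH2B peak that reached an exon, in place of 3 and 4. Drg1 held 0 TH2A peaks, in place of 6, with RefSeq gene bodies and with protein-coding transcripts only, both chosen after seeing the data. Measured between edges, the median spacing was 3532 bp for TH2A and 3477 bp for TH2B. Merging peaks less than 1000 bp apart left 12 TH2A peaks with a median width of 368 bp in place of 262 bp. With 1 library per variant, no replicate could be left out. The lists hold no depth or strength, so none of these peaks could be ranked or tested, and a stretch without a peak shows only that none was listed. No paired analysis was possible because each group has 1 sample.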
